A study of Equus caballus with 4 samples.

Results

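TNFAIP6 and HAPLN1 encode secreted proteins that bind hyaluronan, and both were read here in equine sarcoids, fibroblastic skin tumours of the horse, and in skin of the same animals. They make up 2 of the 1031 genes that could be given a symbol on the array, and 3 of its 43603 probes. Both were chosen from the sarcoid-over-skin differences of an earlier analysis of the same arrays. The values of that contrast are therefore given as a description, with no test. The probes were found by transcript accession, which gave 1 TNFAIP6 probe (A_69_P000336, on NM_001081906) and 2 HAPLN1 probes (A_69_P001256 and A_69_P001257, both on NM_001082504).

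Each of 4 horses gave a sarcoid, labelled with Cy3, and skin taken at a distance from the tumour, labelled with Cy5, and both RNAs were hybridised to 1 two-colour array. Age, sex, breed and treatment of the animals are not stated in the labels. The dyes were swapped on 0 arrays, so a dye effect specific to a probe cannot be told apart from a difference between the tissues. Each horse thus gave 1 sarcoid and 1 skin value, and the spread over horses is the only replicate error.

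Hyaluronan is a long, unsulfated glycosaminoglycan that is made at the cell surface by hyaluronan synthases and fills the matrix of the dermis. TNFAIP6, also called TSG-6, has a link module that binds hyaluronan and a CUB domain. It transfers the heavy chains of inter-alpha-inhibitor from serum onto hyaluronan, and in human and mouse cells it is induced by tumour necrosis factor and interleukin 1. HAPLN1, the cartilage link protein, has an immunoglobulin-like domain and a pair of link modules, and locks hyaluronan to proteoglycans such as aggrecan and versican.

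TNFAIP6 was higher in the sarcoid than in the skin of every horse. Its processed signals, which the scanner software had background-subtracted and dye-normalized on a linear scale, were 7895, 2284, 5717 and 1658 in the sarcoids of horses 1 to 4, against 897, 359, 921 and 304 in their skin. Every sarcoid value lay above every skin value, in a gene chosen on this contrast. The share of all targets with such a gap was not counted. Within a horse the sarcoid signal was 8.80, 6.36, 6.21 and 5.46 times that of the skin. In whole tissue, more or fewer cells of a type and more or less RNA per cell cannot be told apart. The probe was well above background, as the software's own flag marks it, in 4 of 4 sarcoid channels and in 4 of 4 skin channels, and no spot was saturated.

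**Figure D1:**
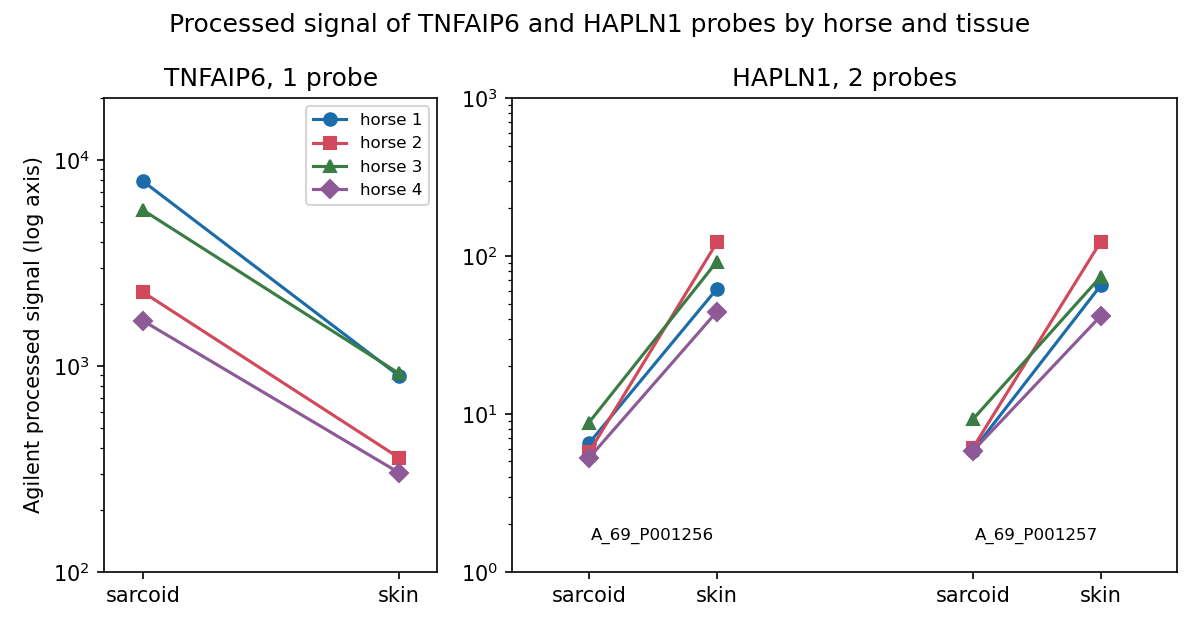
Processed signal (log axis, linear units of the scanner software) of the TNFAIP6 probe and of the 2 HAPLN1 probes in sarcoid and skin, with a line joining both tissues of a horse. Each TNFAIP6 line is higher at its sarcoid end, with 1658 to 7895 in sarcoids against 304 to 921 in skin, and each HAPLN1 line is lower there, with sarcoid ends that, between 5.25 and 9.24, were not well above background.

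The level of TNFAIP6 varied between horses in both tissues. Horses 1 and 3 had the higher signals and horses 2 and 4 the lower ones, in sarcoid and in skin alike. The highest sarcoid signal was 4.76 times the lowest, and the highest skin signal 3.03 times the lowest. The median processed signal over all probes also differed between arrays, from 117 to 263 in the sarcoid channel and from 126 to 269 in the skin channel, with the lowest on the array of horse 4.

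On the log2 scale after background correction, loess within arrays and scaling of average intensities between arrays, TNFAIP6 stood at 11.51, 9.997, 11.11 and 9.88 in sarcoids against 8.72, 7.77, 8.84 and 7.95 in skin. The means were 10.62 ± 0.81 in sarcoids and 8.32 ± 0.54 in skin (SD, n = 4 each). As with the processed signals, the lowest sarcoid level, in horse 4, exceeded the highest skin level, in horse 3. The share of all targets with such a gap was not counted here either. The log2 ratios of sarcoid over skin in horses 1 to 4 were 2.80, 2.22, 2.27 and 1.93, with a mean of 2.30 ± 0.36 (SD, n = 4), which corresponds to 4.94-fold. The ratio thus had a smaller SD over the 4 horses than the level had in either tissue. Over the 19608 targets fitted the median log2 ratio was 0.00352.

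HAPLN1 had a signal well above background in the skin of 4 of 4 horses, at both probes, and in the sarcoid of 0 of 4. Processed signals of the first probe were 6.52, 5.71, 8.82 and 5.25 in sarcoids against 62.0, 122, 92.2 and 44.4 in skin. Those of the second probe were 5.86, 6.08, 9.24 and 5.82 in sarcoids against 65.1, 123, 74.0 and 41.7 in skin. All printed sarcoid values lay below all skin values at each probe, and the share of all targets with such a gap was not counted. Since the sarcoid spots were not well above background, their printed values are neither levels nor limits. The software's background-subtracted sarcoid signal of the first probe was -2.30 in horse 2 and -1.40 in horse 4. Each sarcoid level is known only to lie below what the flag marks as well above background. The processed ratios have no interpretable size.

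The spot signals before any modelling show how close to background these values lie. The median spot signal of the first probe minus its local background was 52, 46, 57 and 45 in the sarcoid channel, against 32, 109, 85 and 73 in the skin channel. Each array holds 153 negative control spots, whose median in the same measure was 41.5 to 48 in the sarcoid channel and 8.5, 8, 8.5 and 13.5 in the skin channel of horses 1 to 4. In the sarcoid channel 6, 23, 6 and 27 of the 153 controls reached the first HAPLN1 probe or exceeded it, and 3, 9, 6 and 12 the second. In the skin channel 1, 0, 0 and 0 controls did so for either probe. Horse 1 is the exception to a clear skin signal: its skin spots, at 32 and 31.5, lay below the highest control of that array, at 49.5, and below its own uncorrected sarcoid spots.

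**Figure D2:**
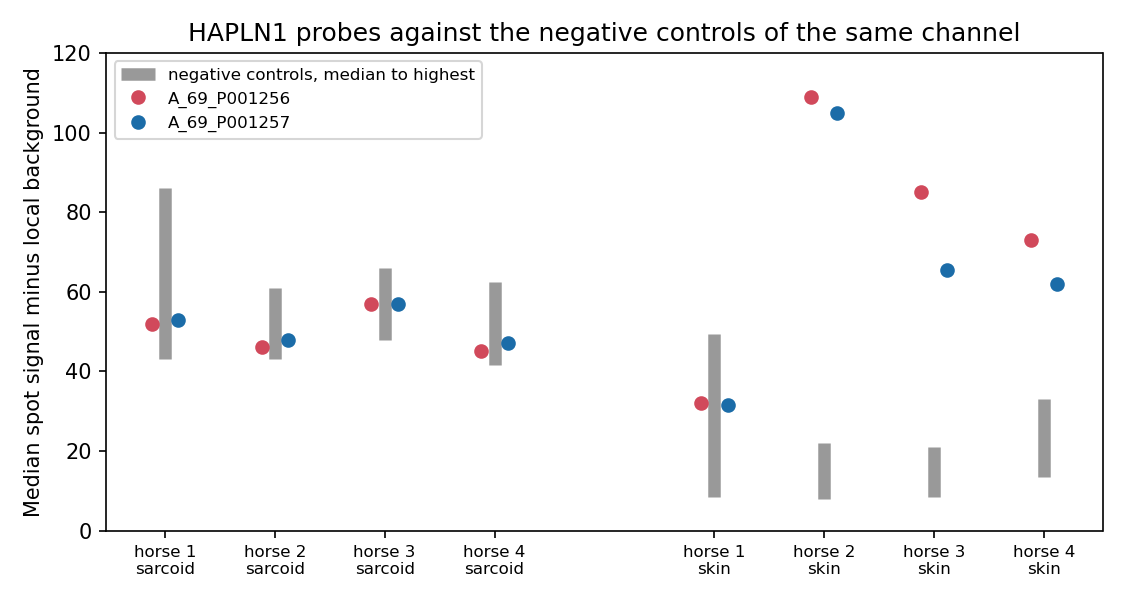
Median spot signal minus local background (linear units) of the 2 HAPLN1 probes on each array, sarcoid channels left and skin channels right, with a grey bar from the median to the highest of 153 negative control spots of that channel. All sarcoid points lie within the bars, whereas the skin points of horses 2, 3 and 4, from 62 to 109, lie above them and those of horse 1 lie within.

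The 2 HAPLN1 probes gave like log2 ratios on each array. The ratios of the first probe were -0.38, -1.08, -0.79 and -0.57 in horses 1 to 4, with a mean of -0.71 ± 0.30 (SD, n = 4). Those of the second were -0.35, -0.998, -0.59 and -0.43, with a mean of -0.59 ± 0.29. The first was lower than the second by 0.03 to 0.19 in every horse. The order of the horses is not read from these ratios, since their sarcoid side is a limit and the order changed with the processing. At the first probe the scaled log2 skin level was highest in horse 2, at 7.15, and lowest in horse 1, at 6.41. The probes share a transcript and the same labelled RNA, so they are not replicates of each other. The second probe had a local background marked as an outlier in the skin channel of horse 1, and its ratio was kept.

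Because the sarcoid side of HAPLN1 is only a limit, the size of the difference is given as a bound. The mean scaled log2 level was 6.11 ± 0.07 in sarcoids and 6.82 ± 0.31 in skin at the first probe, and 6.13 ± 0.06 in sarcoids and 6.72 ± 0.29 in skin at the second (SD, n = 4 each). For it, each sarcoid value was raised, where needed, to the dimmest probe still well above background on its array. With the main values the bound came to 1.62-fold lower in sarcoids at the first probe and 1.499-fold at the second. The mean ratios without raising were 1.63-fold and 1.51-fold lower, so raising changed little. The dimmest such probe is not a detection limit of the HAPLN1 probes, so the bound is not a firm lower limit. The bound depends on how background was handled. At the first probe it was 1.21 when the background model was fitted to all spots and 2.53 with a smaller constant added to every signal. With the software's processed signals it was 9.20, which, like the processed ratios, has no interpretable size.

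The processing also moved TNFAIP6, and the horses did not move alike. The values above leave out spots that the software marked as outliers before the background model is fitted. When every spot entered that model, the TNFAIP6 log2 ratio was 2.80, 1.13, 0.91 and 1.93 in horses 1 to 4, so horses 2 and 3 were lower than above and horses 1 and 4 were at the same values. The first HAPLN1 probe was then at -0.38, -0.12, -0.02 and -0.57. On those arrays the SD of the fitted background was 495 and 1394 in the sarcoid channels of horses 2 and 3, and 177 and 1536 in their skin channels, against 1.57 or less in all channels without the outlier spots. The processed signals, made by the software with no such model, had TNFAIP6 at log2 ratios of 3.14, 2.67, 2.63 and 2.45. TNFAIP6 was above 0 and HAPLN1 below 0 in every horse under each of these.

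**Figure D3:**
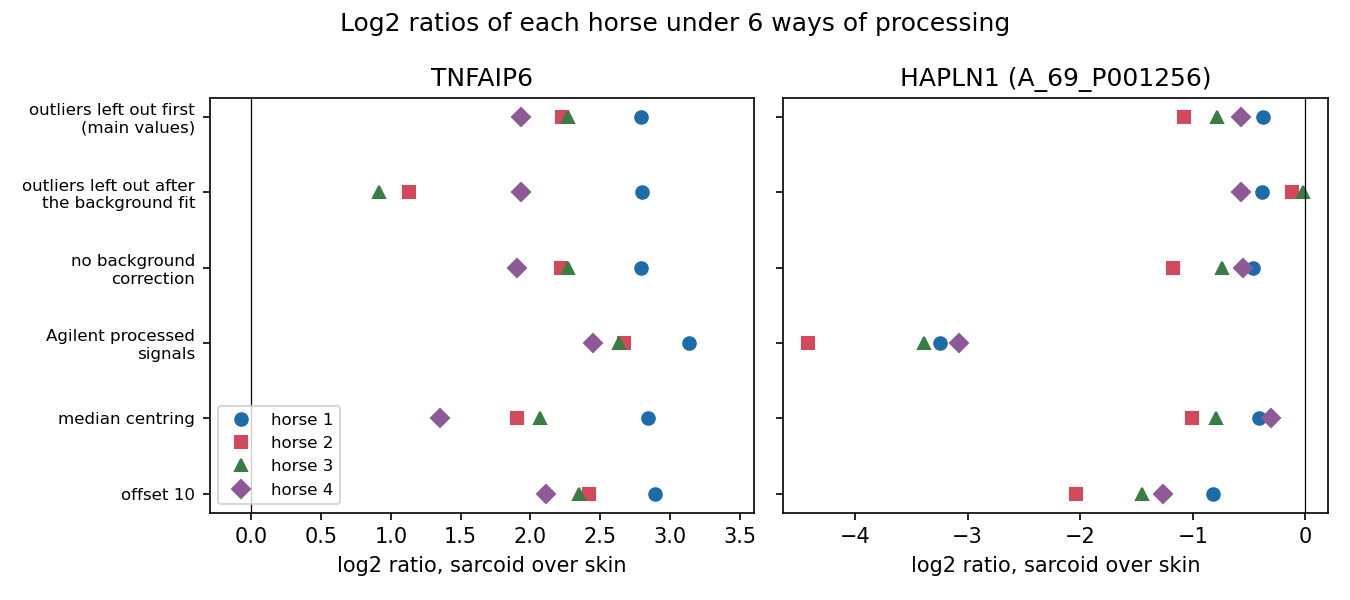
Log2 ratio of sarcoid over skin (x axis) in each of 4 horses under 6 ways of processing, for TNFAIP6 on the left and the first HAPLN1 probe on the right. TNFAIP6 lies right of 0 throughout and moves for horses 2 and 3 to 1.13 and 0.91 when outlier spots enter the background fit. HAPLN1 lies left of 0 throughout, from -0.02 to -4.41, the latter from processed signals, whose ratios have no interpretable size.

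The question of which other genes linked to hyaluronan or to TNFAIP6 differ between sarcoid and skin could be asked of few. The 43 genes listed by role were of synthesis, breakdown, receptors, other link-module proteins, partners of TNFAIP6, and its inducers and genes induced with it. Of these 43, 8 had a probe that could be named, and 0 of these 8 were called higher and 0 lower in sarcoids by limma at an adjusted p under 0.05. At an unadjusted p under 0.05 there were 0 higher and 1 lower, IL1A, which passed the filter on dim probes only through the skin and so cannot be read as a result. Of all targets tested in the same fit 5.84% were called higher and 9.90% lower, so a list of 8 with no call is not far from the background. Of all calls 37.1% were on the higher side, against 48.2% with the processed signals and 18.6% with each array centred on its median. The median log2 ratio of the 8 was -0.15, with the IL1A value, whose sarcoid side is not above background, counted in it. Of the 8, 6 were partners, inducers or co-induced genes of TNFAIP6 rather than genes of hyaluronan synthesis or its receptors. No member of the breakdown list and none of the other link-module proteins, among them versican and aggrecan, was measured by name.

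The only synthase measured was HAS2, which makes long hyaluronan chains, at log2 ratios of 0.36, -0.38, 0.62 and -0.26 in horses 1 to 4. These values lie on both sides of 0, with a mean of 0.08 ± 0.48 (SD, n = 4; limma adjusted p = 0.823). The only receptor was CD44, the main cell-surface receptor for hyaluronan, at 0.47, -0.13, -1.78 and -1.33. CD44 averaged -0.69 ± 1.04 (limma adjusted p = 0.310), above 0 in horse 1 alone and lowest in horse 3. Neither gene had a difference beyond the spread between horses.

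The only measured partner of TNFAIP6 was THBS2, which encodes thrombospondin 2, a matricellular protein. Its log2 ratios were 2.55, 1.51, 0.65 and -0.21 in horses 1 to 4, with a mean of 1.12 ± 1.18 (SD, n = 4; limma adjusted p = 0.164). It was above 0 in 3 of 4 horses and its 4 probes averaged between 0.93 and 1.14.

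Of 6 genes known to induce TNFAIP6 or to be induced with it, 5 were measured, and 0 of the 5 passed. The log2 ratio of TNF, the cytokine that gives TNFAIP6 its name, averaged -0.28 ± 0.71 with 2 of 4 horses above 0 (SD, n = 4; limma adjusted p = 0.559). IL1A, which encodes interleukin 1 alpha, was below 0 in every horse, at -1.97, -0.62, -0.48 and -0.78. It was well above background in the sarcoid of 0 horses and in the skin of 4. With the main values the same bound as for HAPLN1 came to 1.82-fold lower in sarcoids, which is not a firm limit. It was not called (limma adjusted p = 0.0760). IL1A entered the fit only through its skin channels. Its mean log2 ratio was -0.96, against -0.70 with the background model fitted to all spots and -0.63 without horse 1. With the smaller constant it was -1.85, and with the processed signals -3.78. The size thus depends on how the background is handled and on the horses. The IL1A bound holds for the main values only, and no call is drawn from it.

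With the main values the remaining inflammatory genes had small or mixed differences. IL6, which encodes interleukin 6, was at 0.28 ± 0.17 and above 0 in 4 of 4 horses (SD, n = 4; limma adjusted p = 0.181). It was well above background on 3 of 4 arrays in each channel. Its mean was 0.51 with the smaller constant and 1.42 ± 1.34 with the processed signals, so its size also depends on the background handling. CXCL8, the neutrophil chemokine interleukin 8, was at -0.41 ± 0.64, and PTGS2, the inducible cyclooxygenase, at -0.03 ± 0.73 (limma adjusted p = 0.342 and 0.959). These are the lowest probes of each gene. The 6 CXCL8 probes averaged between -0.41 and 0.01 and the 3 PTGS2 probes between -0.03 and 0.31. Horse 1 had the highest PTGS2 ratio, 1.05, and the lowest CXCL8 ratio, -1.25. A p that misses the threshold with 4 horses does not show that these genes are alike in both tissues.

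**Figure D4:**
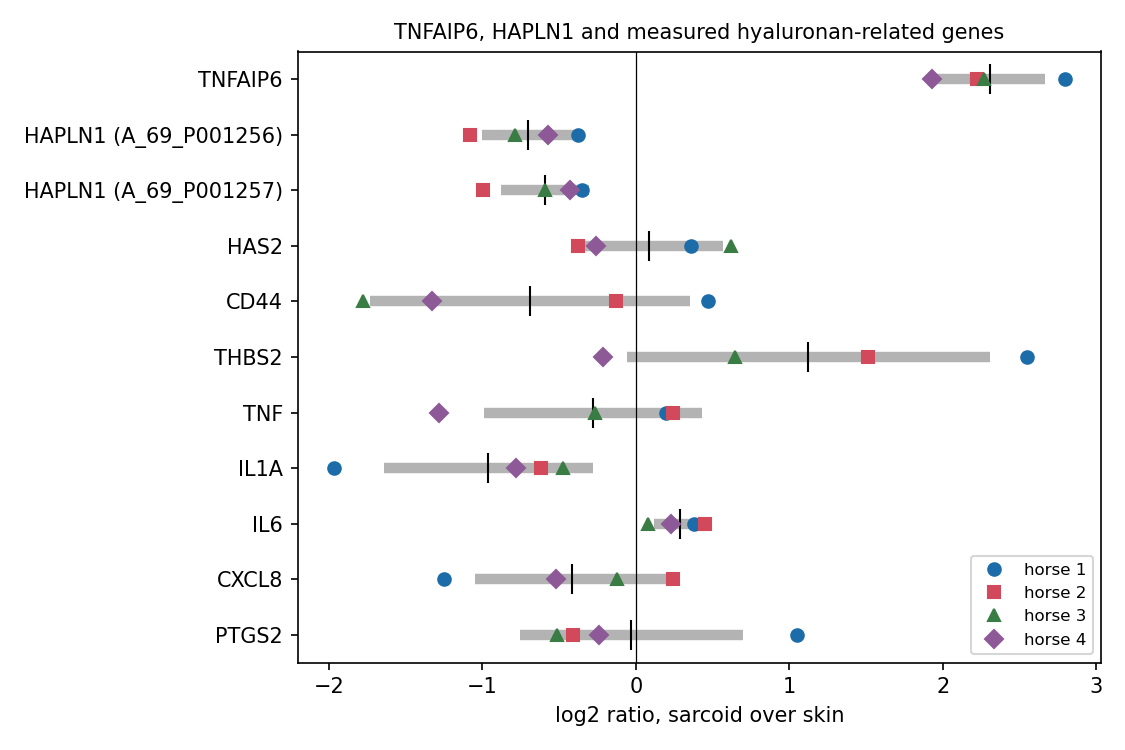
Log2 ratio of sarcoid over skin (x axis) for TNFAIP6, the 2 HAPLN1 probes and the 8 measured genes of the hyaluronan lists, with 1 point per horse, a tick at the mean and a grey bar of 1 SD on each side (n = 4). TNFAIP6 has all 4 points above 1.9, while HAS2, CD44, THBS2, TNF, CXCL8 and PTGS2 have points on both sides of 0.

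Some markers of several cell types also differed between the tissues. Marker calls are of the main fit, in which 5.84% of all targets tested were called higher and 9.90% lower, 1146 and 1941 targets. With the background model fitted to all spots 93 and 147 were called, and marker calls are not given for that fit. The share of all targets whose signals do not overlap between the tissues was not counted. Of 8 fibroblast markers 3 were measured (DCN, LUM and VIM), and all 3 were called higher in sarcoids. Their log2 ratios ran from 1.58 to 4.24, and over all their probes the lowest average was 1.29, for VIM. Their summed processed signal was 725660 to 1506610 in sarcoids against 187197 to 269623 in skin. Of 7 myeloid markers 3 were measured, of which CSF1R was called higher (1.24 ± 0.51; SD, n = 4) and CD14 and CD68 were not, and the sums overlapped, at 13020 to 32978 in sarcoids against 7179 to 15062 in skin. Of 6 endothelial markers 4 were measured, of which VCAM1, an adhesion molecule for leukocytes, was called higher (2.61 ± 0.78) and PECAM1, SELE and VWF were not, with sums of 10455 to 47771 in sarcoids against 6170 to 13018 in skin. The 2 lymphoid markers measured and the 1 of smooth muscle were not called. The part of these cells in the TNFAIP6 difference was not tested.

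On the side of the skin, the only keratinocyte marker measured of 8, KRT15, was called lower in sarcoids, with signals of 521 to 1726 in sarcoids against 21595 to 66755 in skin. Of 5 gland markers 4 were measured and all 4 were called lower, where 9.90% of all targets tested were. The gland sums were 6152 to 12388 in sarcoids against 493355 to 920275 in skin. Both sets were well above background in every skin channel. Of 7 cartilage markers, looked at because HAPLN1 is a cartilage protein, COMP was called lower (-2.02 ± 0.88) and COL2A1 was not called (0.91 ± 0.57; SD, n = 4). COMP's 2 probes averaged -2.02 and 0.11, and the 6 probes of COL2A1 averaged between -0.06 and 0.91. The cartilage sums were 246 to 918 in sarcoids against 988 to 2674 in skin. They hold only the probe that stands for each gene, so the COMP probe at 0.11 is not in them. Of 3 melanocyte markers measured, PMEL (-2.16 ± 0.68) and TYRP1 were called lower, with sums of 126 to 292 in sarcoids against 831 to 3697 in skin. The 2 PMEL probes averaged -2.16 and -0.99. Both erythrocyte markers were called lower, HBA2 at -1.33 ± 0.33 and HBB at -0.76 ± 0.39, with sums of 113 to 265 in sarcoids against 422 to 914 in skin. Of 4 skeletal muscle markers only MB was called lower, with overlapping sums of 236 to 1047 in sarcoids against 405 to 1050 in skin. TYRP1 and MB were well above background in 0 sarcoid channels and HBB in 1, so they entered through skin alone. As for IL1A, their calls cannot be read as results. The melanocyte, erythrocyte and skeletal muscle sums include them. No hair follicle marker was measured by name, and the part of these cells in the HAPLN1 difference was not tested.

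Among the 844 other targets with a symbol, those whose 4 log2 ratios lay nearest to TNFAIP6 were LOC102149211, COL5A2, DSE, SELENOP and TIMP1. The root mean square difference over the 4 horses was 0.35, 0.40, 0.41, 0.42 and 0.53. COL5A2 encodes a chain of the fibrillar collagen V, DSE the epimerase that turns chondroitin into dermatan sulfate, SELENOP a selenium-carrying plasma protein and TIMP1 an inhibitor of matrix metalloproteinases. Their mean log2 ratios lay between 2.05 and 2.43. COL5A2 and DSE had their highest ratio in horse 3, at 2.44 and 2.59, whereas TNFAIP6, SELENOP and TIMP1 had theirs in horse 1, at 2.80, 3.504 and 3.11.

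HAPLN1 was compared only with the 23 targets with a symbol that, like it, were well above background in 0 sarcoid channels. The nearest were NPY5R, a neuropeptide Y receptor, at a root mean square difference of 0.28, then CD1A3 and CD1E1, of the lipid-presenting CD1 family, at 0.35 and 0.36, then C5H1orf105 at 0.44. Their mean log2 ratios ran from -0.36 to -0.73. CD1A3 was above 0 in horse 1, at 0.02, where HAPLN1 was at -0.38. The sarcoid side of each is a limit and not a level, as for HAPLN1.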

How the data were processed

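Tissue had been frozen at -80 °C in a preservative and 100 ng of RNA amplified and labelled with a low-input two-colour kit, per the labels. The deposited scanner files hold spot and background intensity values on a linear scale, and, per the file headers, processed intensity values after subtraction of background and normalization of the dyes. The submitters' processing notes name the software as Agilent Feature Extraction 11.5.1.1. The deposited log10 ratio is of Cy5 over Cy3. The authors' value table equals it (largest difference 0; column medians 0, -0.00262, -0.0118 and 0). Other columns are deposited flags of 0 or 1. In 3 samples the description speaks of embryonic stem cells, against the tissue, dye and horse labels, which were used.

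Outlier spots (feature non-uniform, feature population, background non-uniform; 6 to 47 per array) were left out. Median signals were then corrected with normexp (offset 50) and loess in limma 3.58.1 under R 4.3.3, with control spots at weight 0. Levels per channel were scaled with Aquantile. Of 43803 probe spots per array, 67.2% to 80.7% were well above background in a channel. Probes that passed this flag in a channel of 3 or more of the 4 arrays were kept, the brightest standing for its target. With lmFit and eBayes the mean log2 ratio was compared with 0 (two-sided; Benjamini-Hochberg over 19608 targets), and the fit was tested on simulated data. Of 3437 probes with a RefSeq accession 2332 (67.8%) matched the horse table (assembly TB-T2T), and 31502 Ensembl probes are unnamed here. No coordinates are given, since the design uses another build. All arrays share 1 slide and 1 scan day.

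Members, gene lists, markers and the order of processing were chosen with earlier results of these data known. Named genes are both members, all measured list genes, markers a sentence turns on, and the 5 targets with a symbol nearest to each member by root mean square difference, of which 1 near HAPLN1 is not reported here. The number of arrays limits the precision.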

Additional observations from a re-analysis of the deposited data

How the results depend on the processing

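TNFAIP6 stayed above 0 and HAPLN1 below 0 under all 14 alternatives. Their log2 ratios moved by less than 1 SD in 11 and 10 of them, and with each horse left out in turn they ran from 2.14 to 2.43 and from -0.81 to -0.58. With the background model fitted to all spots TNFAIP6 was at 1.69 and HAPLN1 at -0.27, whether outlier spots were left out afterwards or kept. With Agilent's processed signals they were at 2.72 and -3.53, the latter of no interpretable size. With offset 10, an alternative chosen after seeing the data, HAPLN1 was at -1.39. Targets called higher and lower numbered 1146 and 1941, against 93 and 147 with outlier spots left out after the fit, 94 and 147 with them kept, 1887 higher with processed signals and 614 higher on median centring. With a horse left out they ran from 389 to 821 and from 1071 to 1412, at 389 and 1071 without horse 1, 581 and 1162 without horse 2, and 671 and 1250 without horse 3. With processed signals and with offset 10, 1 list gene, IL1A, was counted lower, on a sarcoid side not above background. Genes near 0 changed sign without passing: PTGS2 was at 0.11 with the model on all spots (outliers left out afterwards or kept), 0.10 with processed signals, 0.079 on averaging probes and -0.39 to 0.13 with a horse left out. HAS2 was at -0.032 on median centring and -0.093 to 0.24 with a horse left out, and TNF at -0.45 to 0.055. IL6 had no value with probes required above background on 4 of 4 arrays. Leaving out background population outliers too, also added later, gave 1056 higher and 1868 lower. The wider fitted background on the arrays of horses 2 and 3 goes with the change on fitting all spots; the cause of the other changes was not tested. The pairing by horse is inside each ratio. Signal over background limits HAPLN1, IL1A and IL6, and the markers HBB, TYRP1 and MB.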
